A study of Mus musculus with 7 samples.

Results

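The triad and T-tubule structural proteins were examined in quadriceps muscle of AR113Q mice, a knock-in model of spinobulbar muscular atrophy, through 10 genes fixed by name: Jph1, Jph2, Jsrp1, Trdn, Asph, Fkbp1a, Homer1, Cav3, Bin1 and Mtm1. They were 10 of the 16549 genes tested and had 22 of the 39429 probes on the array, between 1 and 5 probes each, and every probe is described. The 7 arrays held quadriceps RNA of 3-month-old C57BL/6 mice, 4 labelled WT and 3 labelled AR113Q, with 1 mouse on each array. AR113Q mice carry a humanized allele with an expanded CAG repeat at the endogenous mouse locus, so no added promoter drives the allele and all tissues that use the locus can express it. The labels name the controls WT, whereas the text of the study describes the controls of this experiment as knock-in mice with a humanized allele of short repeat. They are called WT here, and if the text holds, the humanized sequence was shared by both groups. The sample labels name no treatment, while the design text of the series adds the letters NCD to the AR113Q name alone, and the sources used here do not explain them. The labels do not say whether mice shared a litter or a cage.

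The triad is the junction where a transverse tubule (T-tubule), an inward fold of the muscle fiber membrane, meets the terminal cisternae of the sarcoplasmic reticulum (SR) on either side. An action potential in the T-tubule moves the voltage sensor, the dihydropyridine receptor, which opens the ryanodine receptor RYR1 and releases calcium from the SR, a sequence called excitation-contraction coupling (ECC). The structural proteins hold this junction together: junctophilins tether the membranes, triadin, junctin and JSRP1 link the channels to calsequestrin inside the SR, HOMER1 and the immunophilin encoded by Fkbp1a bind RYR1, and caveolin-3, BIN1 and myotubularin shape the T-tubule membrane.

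Because several members were read at more than 1 transcript, the probe was the unit of measurement. The sequences below are shown because they locate the transcripts on which the Asph and Homer1 results turn. Each array probe is 60 bases long, and the last 30 bases, 5′ to 3′, are printed with the whole probe's position on mm9. Capitals mark AATAAA, the canonical polyadenylation signal letters, searched on the probe strand only. The Asph probes are given in the direction of transcription. The array annotation, which lists at most 4 accessions for a probe, assigned the upper pair to transcript variants 2 and 8, the next to a set that begins with variant 4 and the last to a set that begins with variant 1.
Asph A_52_P625171, chr4:9563054-9563113, minus strand: gagactttgatgtggatgatgccaaagttt
Asph A_55_P1967414, chr4:9548068-9548127, minus strand: ttagcccatcacaaacaattAATAAAagaa
Asph A_52_P306351, chr4:9502593-9502652, minus strand: aacttctgtatgtaatctgtttcaaaactc
Asph A_55_P2379599, chr4:9379226-9379285, minus strand: tagtaaagcattgctgcattttattttcta
The Homer1 probes follow, also in the direction of transcription. The first 3 were annotated to transcript variant S, the short form, and the last 2 to variant L, the long form. With at most 4 accessions listed, this does not show that a probe reads 1 form alone.
Homer1 A_55_P2122789, chr13:94116595-94116654, plus strand: gggattctcctctgagcatcatctttcaaa
Homer1 A_55_P1982122, chr13:94125924-94125983, plus strand: cgatgagagaacacccgatgtgacacagaa
Homer1 A_55_P1982121, chr13:94126009-94126068, plus strand: acattcaattcagcaatcatgattaagtaa
Homer1 A_66_P104134, chr13:94157507-94157566, plus strand: aaactcactgcagccctgctggagtccact
Homer1 A_55_P1982111, chr13:94174815-94174874, plus strand: ttataactatgaaatcttgtacaaaagcaa
AATAAA stood in 3 of the 22 member probes (Asph A_55_P1967414, Jsrp1 A_55_P2037141 and Fkbp1a A_55_P1991134), against 12.6% of all 39429 probes. The match is a description of the letters and does not by itself place a transcript end.

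Every one of the 22 probes exceeded background on 3 or more arrays and was tested, and 21 did so on all 7. The exception was the Mtm1 probe A_55_P2043977, which passed on 3 of 4 WT and 3 of 3 AR113Q arrays. Values are log2 of the background-subtracted intensity after quantile normalization, and a change is the AR113Q mean minus the WT mean on that scale, estimated with limma and adjusted by Benjamini-Hochberg over the 20990 probes tested. A probe marked a differentially expressed gene (DEG) where its adjusted p did not exceed 0.05 and the log2 fold change was 1 or more in either direction. The level of 1 probe cannot be set against the level of another.

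The structural genes of the triad were mostly lower in AR113Q. AR113Q was lower at 19 of 22 probes and higher at 3. By the DEG thresholds, 9 probes (40.9%) fell, where 12.6% of all probes tested did, and 0 rose, where 12.2% of all probes did. The Asph probe A_52_P306351 rose past both thresholds without AR113Q replicate 1 and with array weights. The 9 probes belonged to 5 genes, Jph2, Asph, Homer1, Cav3 and Bin1. By adjusted p alone, 12 probes (54.5%) were lower, against 21.6% of all probes, and 1 was higher, against 22.2%. These 13 probes added Jph1, Trdn and Fkbp1a, so that 8 of 10 genes had a probe past the adjusted p, of which Trdn and Bin1 missed it in several other settings. A gene with several probes has more chances in this count. With each gene read by its brightest probe, 7 of 10 members were lower by adjusted p and 0 higher. Of all 16549 genes, 3730 were lower and 3472 higher on that scale. The genotypes did not overlap at 16 probes (72.7%), against 49.6% of all probes, with WT above at 14 and AR113Q above at 2. The median log2 fold change was -0.94 over the 22 probes and 0.01 over all probes tested.

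**Figure D1:**
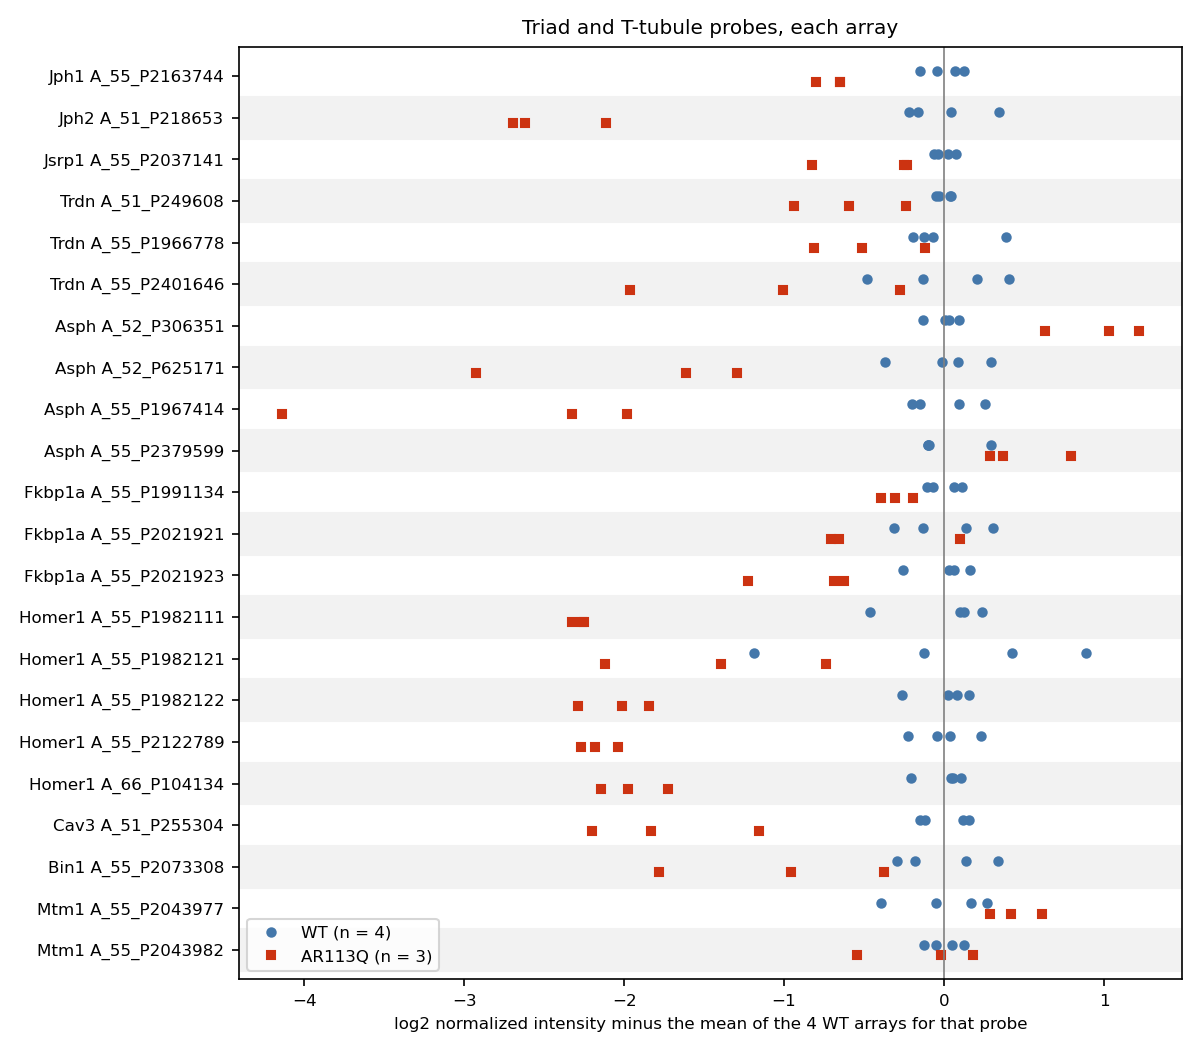
Each of the 22 probes is a row, and the horizontal axis gives the log2 normalized intensity of each array minus the mean of the 4 WT arrays for that probe (circles, WT; squares, AR113Q). The 3 AR113Q arrays lie apart from and below WT for Jph2, Cav3, 4 of 5 Homer1 probes and the Asph probes A_52_P625171 and A_55_P1967414, and above WT for the Asph probe A_52_P306351.

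**Figure D2:**
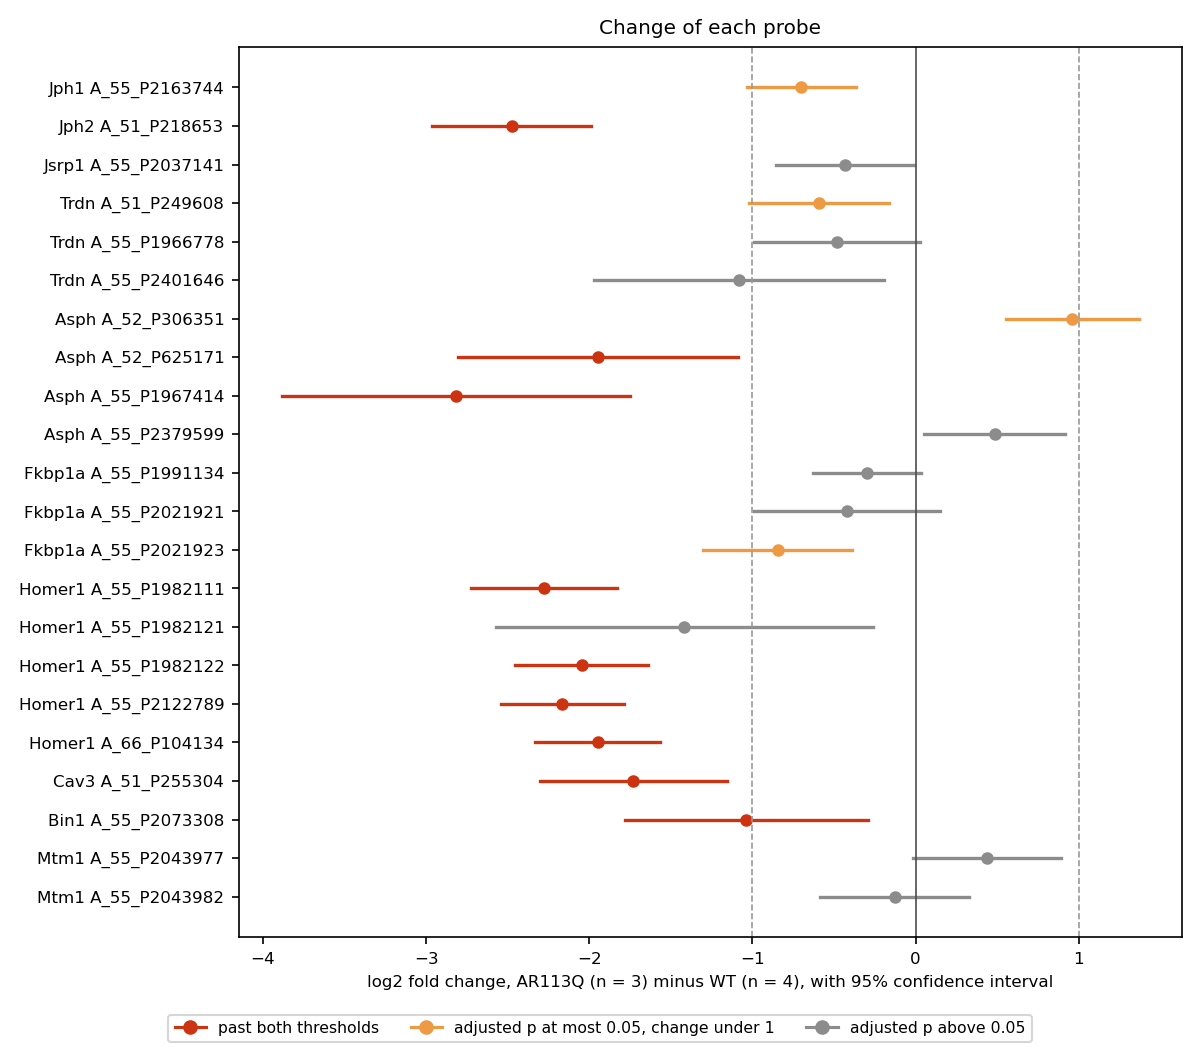
The log2 fold change of each probe, AR113Q minus WT, is a point and its 95% confidence interval a bar, with dashed lines at -1 and 1. The interval of the Jph2 probe runs from -2.96 to -1.99, whereas that of the Bin1 probe runs from -1.78 to -0.29.

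Jph2 and Jph1 encode the junctophilins of muscle, which span from the SR membrane to the T-tubule membrane and set the gap between them. The log2 intensity of the Jph2 probe A_51_P218653 (chr2:163163526-163163585) was 10.34, 9.83, 9.77 and 10.04 in WT and 7.30, 7.37 and 7.88 in AR113Q. The highest AR113Q array was well below the lowest WT array. Jph2 fell by 2.48 ± 0.21 (SE) on the log2 scale, a 5.57-fold decrease to 18% of WT, with an adjusted p of 0.00017. The change was smaller with normexp background correction (-1.90) and from the log2 values that the authors deposited (-1.72), past both thresholds in each. The Jph1 probe A_55_P2163744 (chr1:16987545-16987604) read 9.27, 9.00, 9.10 and 9.22 in WT and 8.50, 8.50 and 8.35 in AR113Q. The groups did not overlap for Jph1 either, and its change of -0.70 ± 0.15 passed the adjusted p (0.00592) but not the fold threshold. The Jph2 probe was annotated to both RefSeq variants of the gene.

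Asph changed in opposite directions along the gene. The locus produces several proteins from alternative transcripts, among them the SR membrane proteins junctin and junctate and the enzyme aspartate beta-hydroxylase, and the annotation does not say which of these each probe reads. At A_52_P625171, the most upstream probe, WT arrays read 14.19, 13.53, 13.88 and 13.99, and AR113Q arrays read 10.97, 12.60 and 12.29. At A_55_P1967414, 15.0 kb downstream and ending in the letters AATAAA and a few bases more, WT read 12.64, 12.19, 12.23 and 12.48 and AR113Q 8.25, 10.41 and 10.06. Both probes of variants 2 and 8 were lower on every AR113Q array, and AR113Q replicate 1 was the lowest at both. The first fell by 1.95 ± 0.37 (adjusted p = 0.00409), to 26.0% of WT. The second fell by 2.82 ± 0.47 (adjusted p = 0.00213), to 14.2% of WT. Without AR113Q replicate 1 these changes were -1.45 and -2.15 and still past both thresholds.

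The Asph probes further downstream had higher means in AR113Q. At A_52_P306351, 60.5 kb from the first, WT read 8.34, 8.12, 8.25 and 8.28 and AR113Q 8.88, 9.47 and 9.28. All AR113Q arrays were above all WT arrays, and the change of 0.96 ± 0.18 passed the adjusted p (0.00346) and fell just short of the fold threshold. It passed both thresholds without AR113Q replicate 1 (1.13, adjusted p = 0.00241) and with array weights (1.08, adjusted p = 0.00138). At A_55_P2379599, 183.8 kb from the first, WT read 7.27, 7.27, 7.28 and 7.66 and AR113Q 7.74, 8.16 and 7.66. The lowest AR113Q array lay at the level of WT replicate 4, and the change of 0.48 ± 0.19 did not pass (adjusted p = 0.0687).

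Whether the Asph probes differed from each other was tested directly. On each array the mean of the gene's other probes was subtracted from a probe, and this difference was compared between the genotypes over the 8095 probes of genes with 2 or more tested probes, of which 20.7% passed an adjusted p of 0.05. This test was chosen after the opposite signs at Asph had been seen. The change of A_52_P625171 relative to the other Asph probes was -1.49 ± 0.19 (adjusted p = 0.00181) and that of A_55_P1967414 was -2.65 ± 0.31 (adjusted p = 0.00119). The relative change was 2.39 ± 0.21 for A_52_P306351 (adjusted p = 0.000452) and 1.75 ± 0.30 for A_55_P2379599 (adjusted p = 0.00567). The genotypes did not overlap in any of these 4 differences, and all 4 passed in each of the 13 other settings tried. The fit with the slide as a fixed term, described below, was not among these 13. Each difference is taken against the gene's other probes, so the 4 depend on one another and are not separate results. The falls upstream enter the positive values downstream, and A_55_P2379599 did not pass by its own change. None of the 13 probes of Trdn, Fkbp1a, Homer1 and Mtm1 passed the same test, with the lowest adjusted p at 0.0787 and 3 of them at an unadjusted p under 0.05. A mean over all 4 Asph probes gave -0.83 (adjusted p = 0.0412).

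**Figure D3:**
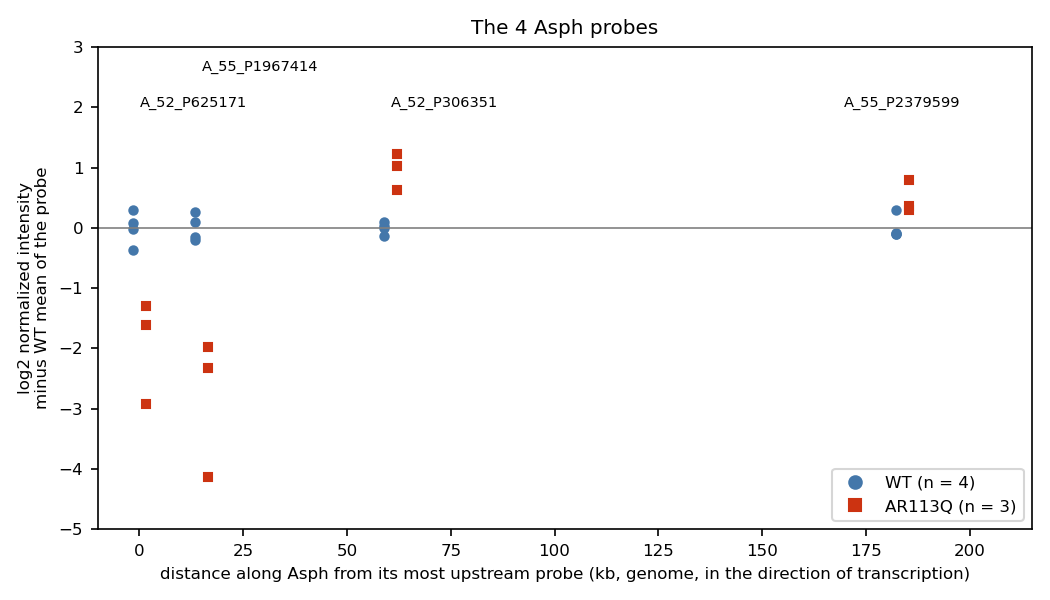
The log2 normalized intensity of each array minus the WT mean is drawn for the 4 Asph probes against their genomic distance in kb from the most upstream probe (circles, WT, n = 4; squares, AR113Q, n = 3). AR113Q lies below WT at 0 and 15.0 kb and above all WT arrays at 60.5 kb, and it meets WT at 183.8 kb.

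Homer1 encodes a scaffold that binds proline-rich motifs of RYR1 and other calcium channels, and its long forms, unlike the short one, carry a coiled coil that joins the molecules. The probes past the thresholds, 4 of 5, fell to between 20.6% and 25.9% of WT. At A_55_P1982111 of variant L, WT read 10.53, 9.83, 10.42 and 10.39 and AR113Q 7.97, 8.03 and 8.05, and the probe fell by 2.28 ± 0.20 (adjusted p = 0.000168). At A_55_P2122789, annotated to variant S, WT read 8.88, 8.70, 8.97 and 9.16 and AR113Q 6.74, 6.66 and 6.89, and the probe fell by 2.16 ± 0.16 (adjusted p = 0.000109). The AR113Q arrays lay close together and far from WT at both of these probes. The other 2 probes past the thresholds, A_66_P104134 of variant L and A_55_P1982122 of variant S, fell by 1.95 ± 0.17 and 2.05 ± 0.18 (adjusted p = 0.000167 and 0.000171), again without overlap. A_55_P1982121, the variant S probe whose printed bases end in TAA, a stop codon if read in that frame, was dim. It read 4.67, 5.73, 6.28 and 6.74 in WT and 5.12, 3.73 and 4.46 in AR113Q. The groups overlapped through WT replicate 1, and the change of -1.42 ± 0.50 was at an adjusted p of 0.0503. It passed both thresholds in 7 of 19 other settings, among them without WT replicate 1 (-1.81) and without AR113Q replicate 1 (-1.76), and it missed the adjusted p in 10. The size of the Homer1 change differed between settings. At the 4 probes past the thresholds it was -1.78 to -1.28 with normexp background correction and -1.64 to -1.09 from the authors' values, past both thresholds in each, and at A_55_P1982121 it was -0.45 and -0.26.

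Cav3 encodes caveolin-3, the muscle caveolin that coats the membrane folds from which T-tubules form. Its probe A_51_P255304 (chr6:112422739-112422798) read 13.45, 13.48, 13.75 and 13.72 in WT and 11.40, 11.77 and 12.44 in AR113Q. The AR113Q arrays spread over more than the WT arrays, and the groups did not overlap. Cav3 fell by 1.73 ± 0.25 (adjusted p = 0.00119), a 3.32-fold decrease to 30.1% of WT. Without AR113Q replicate 1 or any other single array the change stayed past the thresholds, between -2.02 and -1.49.

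Bin1 encodes amphiphysin-2, which bends membranes into tubules. The probe A_55_P2073308, on chromosome 18, read 12.94, 13.58, 13.05 and 13.38 in WT and 11.46, 12.86 and 12.28 in AR113Q. AR113Q replicate 2 lay just under the lowest WT array and replicate 1 far below it. Bin1 fell by 1.04 ± 0.33 (adjusted p = 0.0321), to 48.7% of WT, and this call was the least secure of the 9. It was lost in 12 of 21 other settings, in which the change kept its sign. Leaving out WT replicate 2, WT replicate 4, AR113Q replicate 1 or AR113Q replicate 3 ended it, with changes of -0.92, -0.99, -0.67 and -1.08 (adjusted p = 0.0775, 0.0702, 0.0813 and 0.0587).

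Mtm1 encodes myotubularin, a phosphoinositide phosphatase of the T-tubule and endosome pathway. At A_55_P2043982, annotated to variant 1 and 3 further RefSeq records, WT read 6.40, 6.58, 6.50 and 6.33 and AR113Q 5.91, 6.43 and 6.63. The groups overlapped, and the change of -0.13 had a 95% confidence interval from -0.58 to 0.33 (adjusted p = 0.634). At A_55_P2043977 of variant 5, close to background, WT read 4.42, 4.07, 4.64 and 4.73 and AR113Q 4.75, 4.88 and 5.08. AR113Q lay just above WT there, and the change of 0.44 ± 0.20 did not pass (adjusted p = 0.105). No difference in Mtm1 was therefore detectable with 7 arrays.

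Trdn encodes triadin, which anchors calsequestrin to RYR1. A_51_P249608 (chr10:32919981-32920040), annotated to a record named cardiac triadin isoform 2, read 14.92, 14.92, 14.82 and 14.85 in WT and 13.94, 14.64 and 14.28 in AR113Q. WT arrays were tightly grouped above all AR113Q arrays, and the change of -0.59 ± 0.19 passed the adjusted p (0.0332) but not the fold. It missed the adjusted p in 10 of 21 other settings, among them 6 of the 7 fits with 1 array left out, all but that without AR113Q replicate 2 (adjusted p up to 0.0838). A_55_P2401646 (chr10:32915796-32915855), shared by several triadin records, read 10.86, 11.05, 10.51 and 10.17 in WT and 8.69, 10.37 and 9.64 in AR113Q. AR113Q replicate 2 lay above WT replicate 4, and the change of -1.08 ± 0.39 missed the adjusted p at 0.0516. Leaving out AR113Q replicate 2 or WT replicate 4 brought it past both thresholds, at -1.48 and -1.24 (adjusted p = 0.0152 and 0.0482). Leaving out AR113Q replicate 1 moved it the other way, to -0.64 (adjusted p = 0.15), as did leaving out WT replicate 2 (-0.95, adjusted p = 0.116). The third probe, A_55_P1966778 (chr10:33194264-33194323), gave -0.48 ± 0.22 with overlapping groups (adjusted p = 0.112).

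Jsrp1 encodes a junctional SR protein that binds the dihydropyridine receptor and calsequestrin. Its probe A_55_P2037141 (chr10:80271246-80271305) read 16.27, 16.32, 16.18 and 16.20 in WT and 15.42, 16.01 and 15.99 in AR113Q. The groups did not overlap, but replicate 1 stood well below the other AR113Q arrays and the change of -0.43 ± 0.18 did not pass (adjusted p = 0.0898). Without AR113Q replicate 1 the change was -0.24 (adjusted p = 0.224). It passed the adjusted p with 75th percentile scaling (-0.72, adjusted p = 0.0227) and with an intensity trend in the variance model (adjusted p = 0.045), and not the fold threshold in either.

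Fkbp1a encodes an immunophilin that stabilizes the closed state of RYR1, and its 3 probes were all lower in AR113Q after normalization. A_55_P2021923, annotated to variant 4, read 10.02, 9.88, 9.60 and 9.91 in WT and 8.63, 9.23 and 9.17 in AR113Q. This probe did not overlap between genotypes, and its change of -0.85 ± 0.20 passed the adjusted p (0.00992) but not the fold. A_55_P1991134 and A_55_P2021921 gave -0.30 ± 0.14 and -0.42 ± 0.25 (adjusted p = 0.129 and 0.204), the latter with overlap. Before normalization the intensity of A_55_P1991134 was 3430 to 4490 in WT and 4800 to 5990 in AR113Q, so its direction rests on the normalization. A_55_P2021921 was at -0.68 without AR113Q replicate 3, past the adjusted p (0.0339) but not the fold, and at -0.28 without AR113Q replicate 2 (adjusted p = 0.462).

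Only 1 of the 5 slides held both genotypes, WT replicate 2 beside AR113Q replicate 1. These arrays also belong to the whole comparison. The difference between them was -2.53 for Jph2, -2.08 for Cav3, -1.75 to -1.96 for the 4 Homer1 probes past the thresholds, -2.56 and -3.94 for the falling Asph probes, 0.76 for A_52_P306351 and -2.12 for Bin1. With the slide as a fixed term, these values were the estimates and 0 of 22 probes passed the adjusted p in limma (the lowest was 0.0508), while 14 had an unadjusted p under 0.05. The same fit, with 1 residual degree of freedom, called 0 of 20990 probes, and 7927 had an unadjusted p under 0.05. Slide was therefore tied to genotype in all but this pair.

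**Figure D4:**
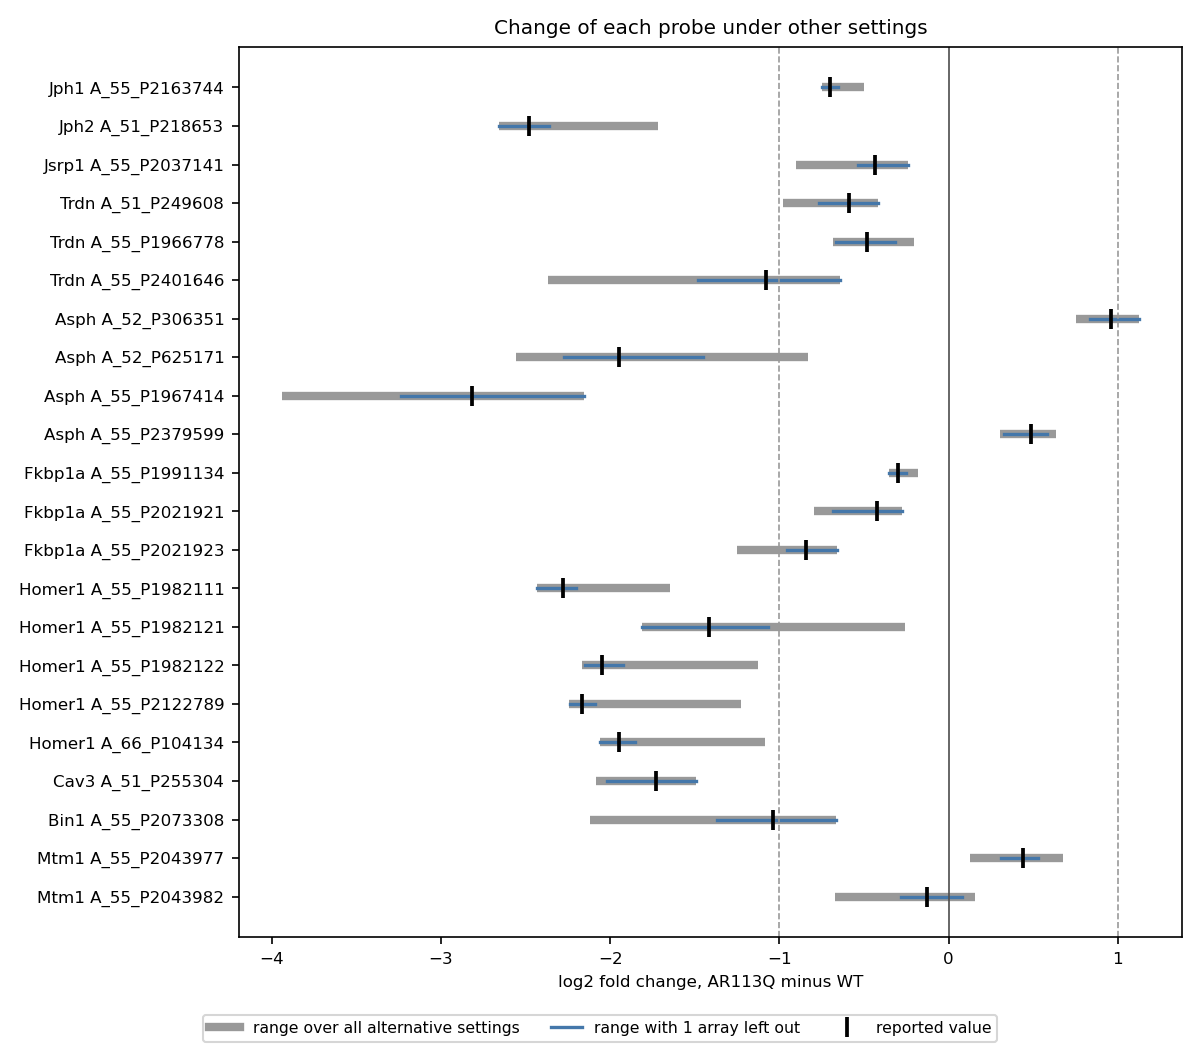
For each probe the tick gives the reported log2 fold change, the thin line its range when 1 array was left out, and the thick bar its range over all other settings. Jph2, Cav3 and the 4 Homer1 probes past the thresholds stay below -1 throughout, whereas Bin1 ranges from -2.12 to -0.67 and Mtm1 A_55_P2043982 crosses 0.

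Of the 10 genes, the RefSeq promoter table (GRCm38.p6) held Jph2, Homer1, Cav3, Fkbp1a and Mtm1. The 250 bases before the start are printed for Jph2, Homer1 and Cav3, whose probes were past the thresholds, with 2 alternative starts for Homer1 and the more upstream of 2 starts for Jph2. Capitals mark CANNTG, the E-box bound by myogenic factors among others, and AGAACA or TGTTCT, a half-site of steroid hormone receptors on either strand.
Jph2, chr2:163397994-163398243, minus strand: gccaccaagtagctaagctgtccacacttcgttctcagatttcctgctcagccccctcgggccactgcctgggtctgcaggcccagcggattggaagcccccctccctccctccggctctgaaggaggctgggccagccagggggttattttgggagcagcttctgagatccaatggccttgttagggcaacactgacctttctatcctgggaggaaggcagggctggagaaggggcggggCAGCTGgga
Homer1, chr13:93303507-93303756, plus strand: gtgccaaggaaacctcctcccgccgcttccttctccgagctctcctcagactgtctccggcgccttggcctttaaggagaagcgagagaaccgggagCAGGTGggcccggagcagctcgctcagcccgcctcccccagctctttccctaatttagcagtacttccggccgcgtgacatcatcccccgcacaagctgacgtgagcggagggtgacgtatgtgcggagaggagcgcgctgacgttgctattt
Homer1, chr13:93307784-93308033, plus strand: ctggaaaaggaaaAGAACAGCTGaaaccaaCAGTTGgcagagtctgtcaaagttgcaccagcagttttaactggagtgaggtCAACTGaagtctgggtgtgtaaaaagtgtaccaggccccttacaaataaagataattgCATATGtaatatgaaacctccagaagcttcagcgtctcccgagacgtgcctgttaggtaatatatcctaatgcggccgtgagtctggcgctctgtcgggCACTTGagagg
Cav3, chr6:112459255-112459504, plus strand: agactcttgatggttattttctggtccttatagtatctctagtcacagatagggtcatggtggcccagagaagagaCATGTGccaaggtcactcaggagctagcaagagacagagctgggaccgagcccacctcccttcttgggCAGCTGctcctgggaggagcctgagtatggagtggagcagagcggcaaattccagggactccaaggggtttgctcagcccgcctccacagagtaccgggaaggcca
CANNTG, which reads the same on both strands, was found in all 4 windows, with 1 match for Jph2, 2 for Cav3, and 1 and 5 for the Homer1 starts. The windows of Fkbp1a (1 match) and of the 3 Mtm1 starts (1, 3 and 2 matches), genes that were not DEGs, held it too, as did 66.2% of all 32851 windows of this length. AGAACA or TGTTCT was found in 1 of the 4, the second Homer1 start, where it overlaps an E-box, in 0 of the Fkbp1a and Mtm1 windows and in 16.1% of all windows. These are letter matches, and no binding was measured.

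The genes around the members were counted from 5 lists, each gene by its brightest probe. On this scale 5 of 10 members were DEGs and lower, against 13.1% of the 16549 genes tested, and 0 were higher, against 11.2%. Their median log2 fold change was -0.87, and that of all genes was -0.01. Of 51 listed genes, 46 were tested, 13 were lower and 4 higher past both thresholds by their fitted change, Ryr3 among the former, with a median of -0.44. Without AR113Q replicate 1 this total of 17 DEGs was 11, and it was 11 from the authors' values.

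Of 7 channels and channel subunits of the triad, 5 were lower by adjusted p, against 3730 of all 16549 genes. By their fitted change 3 were counted past both thresholds, with a list median of -0.77. Both counts include Ryr3, which reached background only in WT. Past both thresholds, 13.1% of all genes fell and 11.2% rose, which sets the scale for the lists that follow. Cacng1 and Stac3, a subunit and a partner of the dihydropyridine receptor, fell, with changes of -1.25 ± 0.22 and -1.05 ± 0.24 (adjusted p = 0.00304 and 0.00946), and are named here because the other gene counted has only a bound. This was Ryr3, a ryanodine receptor of minor abundance in adult muscle, whose probe was well above background on 3 of 4 WT arrays and on 0 of 3 AR113Q arrays. Ryr3 was at least 1.7-fold lower in AR113Q, the WT mean being set against the lowest signal well above background on each AR113Q array. This bound lies under the fold threshold, and the adjusted p of the fitted change (0.000109) does not test it. With Ryr3 at its bound the list median was -0.77. In the list of the SR calcium store, 4 of 11 genes fell and 2 rose, with a median of -0.64. Casq1, the calsequestrin of fast fibers, fell by 3.05 ± 0.37 (adjusted p = 0.000607). Sln, which encodes sarcolipin, an inhibitor of the SR calcium pump, rose by 3.95 ± 0.78 (adjusted p = 0.00475). Of 13 T-tubule and sarcolemma genes tested, 2 fell and 1 rose, close to the shares of all genes, with a median of -0.31. Anxa2, a membrane repair annexin, fell by 1.63 ± 0.19 (adjusted p = 0.000532), whereas Mtmr14, a phosphatase related to myotubularin, rose by 1.37 ± 0.29 (adjusted p = 0.00641).

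Of 5 genes linking the SR to the sarcomere, 2 fell and 0 rose, and the median was -0.38. Ank1, whose small muscle form anchors the SR to obscurin, fell by 1.17 ± 0.28 (adjusted p = 0.0113). Paralogs of the members, of which 10 of 14 were tested, gave 2 lower and 1 higher with a median of -0.11. These counts were close to the shares of all genes (13.1% and 11.2%). Cav2, a caveolin of other cell types, fell by 1.23 ± 0.19 (adjusted p = 0.00159), and Bin3 rose by 1.13 ± 0.20 (adjusted p = 0.0026). The 4 paralogs not tested, among them Jph3 and Jph4, did not reach background on enough arrays.

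**Figure D5:**
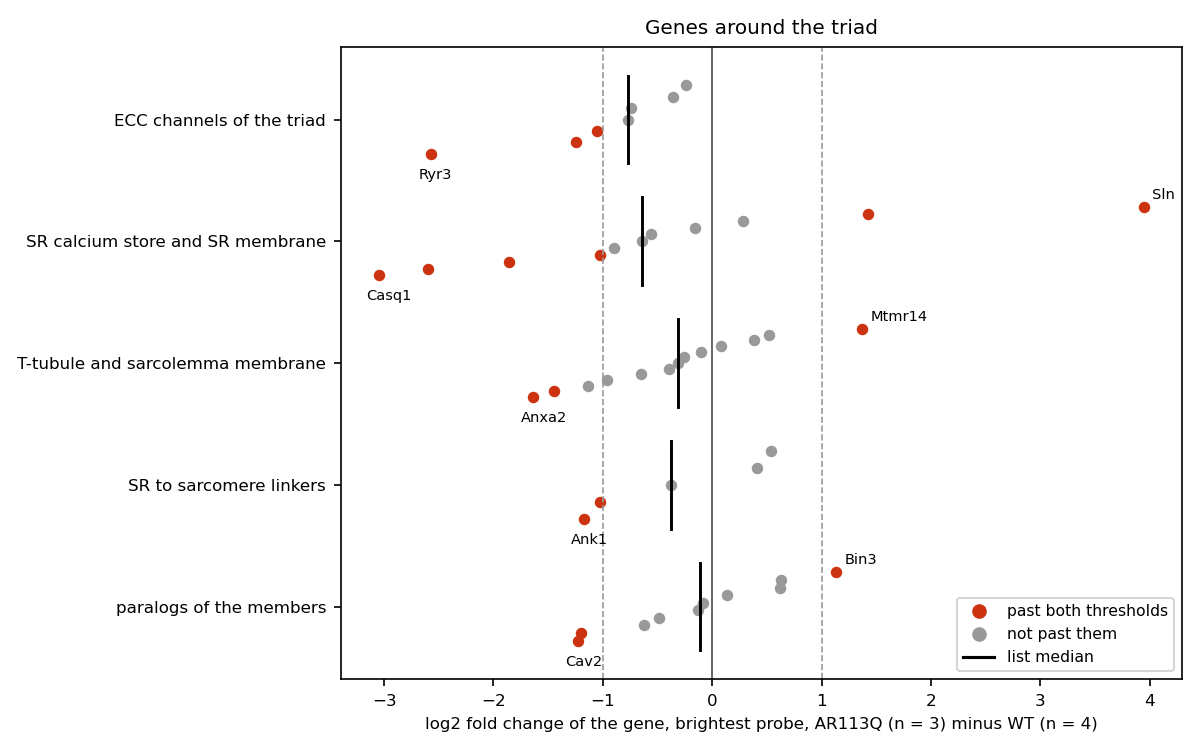
Each point is a gene of 1 of the 5 lists, placed at the log2 fold change of its brightest probe, AR113Q minus WT, with the list median as a black bar and dashed lines at -1 and 1. The medians lie between -0.77 for the channels and -0.11 for the paralogs, and Sln stands alone at 3.95. Ryr3, near background in AR113Q, is drawn at its fitted value.

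In whole muscle, fewer cells of a type and less RNA per cell cannot be told apart. All 9 markers of skeletal muscle fibers were tested and 0 were DEGs (1, Ckm, was lower by adjusted p alone, at 0.0101), and their summed normalized intensity was 642000 to 772000 in WT and 437000 to 763000 in AR113Q. Slow and oxidative fiber markers varied widely between mice of 1 genotype, so that no change in them could be called. Myh7, the slow myosin heavy chain, read 4.95, 12.56, 11.89 and 6.66 in WT and 6.66, 6.22 and 13.59 in AR113Q. Tnnt1, the slow troponin T, was likewise high on WT replicates 2 and 3 and AR113Q replicate 3, at 12.24, 11.78 and 13.46, and 7.33 to 8.08 elsewhere. The signal of slow fiber genes thus differed within both groups, and its part in the members' values was not tested. Markers of other cells moved as well, where 13.1% of all genes fell and 11.2% rose past both thresholds. Of 5 fibroblast markers 3 fell (sums of 99300 to 123000 in WT and 74700 to 105000 in AR113Q), of 5 adipocyte markers 3 fell (31600 to 44600 and 28100 to 28400), of 5 macrophage markers 3 fell and 1 rose (5590 to 10300 and 3660 to 4610), and of 5 Schwann cell markers 2 fell and Mbp was higher by adjusted p alone, at 0.0224 (2000 to 4550 and 1270 to 1800). Of 5 endothelial and 3 tested erythrocyte markers, 0 were DEGs (Pecam1 was higher by adjusted p alone, at 0.0189). Of 6 tested denervation-response genes 3 rose (1460 to 2190 and 6040 to 7030), and Ncam1 was lower by adjusted p alone (-0.68, adjusted p = 0.0409). The 3 fibroblast markers that fell were collagens. Dcn was higher and Pdgfra lower without passing (0.41 and -0.27, adjusted p = 0.0706 and 0.424). No list had all of its markers at background in either group, and the part of these marker shifts in the members' values was not tested. Across the arrays, 47.6% to 55.8% of probes were well above background, and correlations were 0.983 to 0.987 within WT, 0.969 to 0.981 within AR113Q and 0.908 to 0.943 between them.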

How the data were processed

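Total RNA of 7 quadriceps muscles (4 WT, 3 AR113Q) had been labelled with Cy3 and hybridized to 1-colour Agilent mouse arrays. The authors deposited 1 scanner file per array with the intensity of each spot, which Agilent Feature Extraction 10.7.3.1 (submitters' processing notes) had corrected for background in that array alone. A second deposited table gives log2 values of 18592 probes, described as quantile normalized, which was an alternative here; it held 21 of the 22 member probes. Its background treatment is not given in the sources used here, and its column medians were 8.92 to 8.93.

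From the intensity column, outlier spots (94 to 151 per array) and control spots were left out, log2 values were quantile normalized and spots of a probe averaged. Probes well above background on at least 3 arrays were compared with limma 3.58.1 (lmFit, eBayes) in R 4.3.3, adjusted by Benjamini-Hochberg over 20990 probes. No spot was saturated. The level of the targeted gene is not reported here. The procedure was tested on simulated data. Names came from RefSeq accessions (28330 probes) or the files (mm9 positions). The number of arrays limits the precision. The p-values weigh a change against the spread between these arrays, in which mouse and slide are mixed.

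The members and gene lists were chosen with earlier results of these data known. The named genes were all members with every probe and, of each list, the genes with the largest fitted increase and decrease past the thresholds. Cacng1 and Stac3 were added after their values were seen. Alternatives were 75th percentile scaling, normexp correction (offset 50), mean spot intensity, the authors' values, other filters, gene summaries, array weights, slide and replicate blocks, other thresholds and leaving out each array.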

Additional observations from a re-analysis of the deposited data

Results flagged for a closer look

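At the Asph probe A_55_P2379599, the array of WT replicate 4 read 7.66 on the log2 scale, and the nearest WT array read 7.28. The gap was 0.969 of the range of the 4 WT arrays and exceeded Dixon's 95% critical value. About 1 in 20 groups of 4 would be marked by this criterion by chance, and 22 were examined. Without that array the change at this probe was 0.58.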

How the results depend on the processing

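Over the alternative settings, 399 of the fold changes of single member probes kept their direction and their side of the thresholds, 21 were no longer past them, 14 passed them newly and 2 changed sign. Both sign changes were at the Mtm1 probe A_55_P2043982, which was 0.16 when the gene's probes were averaged and 0.0821 without AR113Q replicate 1 (-0.2810 to 0.0821 over the fits with 1 array left out). With the slide as a fixed effect, 0 member probes, 0 member genes and 0 pathway genes passed. This fit rests on the single slide with both genotypes. With no fold threshold the counts were 13 member probes, 8 member genes and 28 pathway genes, and from the authors' values there were 11 pathway genes. With 1 array left out there were 8 to 10 member probes, 4 to 6 member genes and 11 to 19 pathway genes, the lowest pathway count without AR113Q replicate 1. Over all probes, 5207 passed the thresholds, against 2088 after normexp correction, 2264 from mean spot intensity and 1592 of 18592 from the authors' values, for which the cause was not tested. AR113Q replicate 1 and replicate 3 had the lowest array weights (0.428 and 0.413). Replicate numbers 1 to 3 occur in both groups, and deviations of same-numbered arrays correlated at 0.041, -0.016 and 0.156. With so few arrays these values can neither show nor exclude a pairing, and the main comparison used none. The replicate block gave 9 member probes, 5 member genes and 15 pathway genes, against 9, 5 and 17 without it, but it also takes the unpaired WT replicate 4 out of the comparison. Leaving out that array with no block gave the same counts of 9, 5 and 15. In both fits Bin1 was lost (-0.99) and Trdn A_55_P2401646 was gained (-1.24), and not every array correlated best with its own number. In the test of a probe against its gene's other probes, added after seeing the data, 13 sign changes occurred among uncalled probes of Trdn, Fkbp1a and Homer1, and a call appeared in 3 of 13 settings for Homer1 A_55_P1982111 and A_55_P1982121 and in 1 for Fkbp1a A_55_P2021923. Signal over background limits the Mtm1 probe A_55_P2043977, which was not well above background on 1 WT array, and Ryr3, which was not on any AR113Q array.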
